A study of Rattus norvegicus with 29 samples.

Results

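Open chromatin regions (OCRs) around 3 striatal neuropeptide genes, Penk, Pdyn and Tac1, were compared between 4 brain regions of the rat and between METH and saline. The members were all OCRs of the raw count table that overlapped 1 of 3 windows of the rat build rn6, defined by position for each gene: chr5:16430000-16630000 for Penk, chr3:123010000-123220000 for Pdyn and chr4:33540000-33740000 for Tac1. The windows held 43 of the 98237 OCRs of the table: 14 in the Penk window, 26 in the Pdyn window and 3 in the Tac1 window. Each OCR is named here by its window and its number in genomic order, so that Tac1-1 is the first OCR of the Tac1 window, and an OCR in a window is not thereby assigned to that gene.

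The data are 29 ATAC-seq libraries, an assay that marks open chromatin by letting a transposase insert sequencing adapters into it, from adult male Sprague-Dawley rats. Rats received 4 intraperitoneal injections 2 h apart, of 10 mg/kg methamphetamine (METH) or of 1 mL/kg saline, and tissue was taken 24 h after the last injection. The nucleus accumbens (NAc, the ventral striatum), and, from the hippocampus, DG (the dentate gyrus) and CA (Ammon's horn) each gave 4 saline and 4 METH libraries, and the subventricular zone (SVZ, the neurogenic wall of the lateral ventricle) gave 3 saline and 2 METH libraries. The libraries came from 8 animals, each of which gave several regions, and the tissue was taken whole, so that fewer cells of a type and less open chromatin per cell cannot be told apart.

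Penk encodes preproenkephalin, the precursor of the enkephalins, and in the striatum it marks the medium spiny neurons that carry the dopamine receptor Drd2. Pdyn encodes prodynorphin, the precursor of the dynorphins, and Tac1 encodes preprotachykinin, the precursor of substance P and neurokinin A; both mark the striatal neurons that carry Drd1. Pdyn is also made by the granule cells of the dentate gyrus. Distal open chromatin often holds enhancers, which differ between cell types more than promoters do.

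The promoters of Pdyn and Tac1 are shown. The sequences are the 250 bases before the annotated start in RefSeq, build GRCr8, read 5′ to 3′ on the strand of the gene: chr3:137366504-137366753 on the minus strand for Pdyn and chr4:36645333-36645582 on the plus strand for Tac1. Penk had no entry in the promoter table used. Capitals mark a TATA box (TATAAA) in Pdyn and, in Tac1, a CRE-like element (TGCGTCA) followed by an E-box (CACGTG).
Pdyn: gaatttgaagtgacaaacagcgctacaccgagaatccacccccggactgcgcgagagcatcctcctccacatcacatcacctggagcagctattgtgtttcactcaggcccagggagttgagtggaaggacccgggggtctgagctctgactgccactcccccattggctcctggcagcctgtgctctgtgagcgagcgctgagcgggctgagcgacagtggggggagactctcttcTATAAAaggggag
Tac1: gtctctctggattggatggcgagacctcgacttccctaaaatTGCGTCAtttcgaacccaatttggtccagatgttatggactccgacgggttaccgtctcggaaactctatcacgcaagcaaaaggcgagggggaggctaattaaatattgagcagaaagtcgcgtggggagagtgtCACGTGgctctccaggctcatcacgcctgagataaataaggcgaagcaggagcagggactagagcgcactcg
Both strands were searched. With the annotated start as base 0, the TATA box of Pdyn began at base -13, the CRE-like element of Tac1 at -208 and its E-box at -72. The CRE-like element overlapped the shorter CRE core (TGACG, here as CGTCA). In 33469 promoters of this length the TATA box was found in 12.93%, the CRE-like element in 1.66%, the core in 18.22% and the E-box in 5.59%. A full CRE (TGACGTCA, 1.59% of promoters), an AP-1 element (TGANTCA, 6.34%) and an Egr element (GCGNGGGCG, 4.29%) were searched and had no match in either sequence. The GC content was 59.2% for Pdyn and 52.4% for Tac1, against a median of 51.2% over all promoters. Because this build is not that of the count table, the promoters were not placed on an OCR, and whether an OCR is exonic, intronic or intergenic was not analysed here. In GRCr8 the nearest named genes are Sdr16c6 and Ptp4a2l1 beside Penk, Sirpa and Rpl22l2 beside Pdyn, and Sdhaf3 and Asns beside Tac1.

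The depth was 7.55 to 19.4 M counts in OCRs per library, and values are counts per M (CPM) of the upper-quartile library size, in which 3 counts were worth 0.138 to 0.354 CPM. The 2 batches used here are 2 spellings of a prefix in the library names inside the peak lists. No sample title names a batch. METH replicate 3 of NAc stood apart from its group at the OCRs that mark its region. Over the 4576 OCRs more accessible in saline NAc than in the other regions, its median log2 CPM was 0.71, against 2.32 to 2.93 in the other METH libraries of NAc, and its profile was most like that of saline replicate 2 of SVZ (r = 0.922 across OCRs). Saline replicate 3 of SVZ was most like saline replicate 4 of NAc (r = 0.923 across OCRs). By the median r to the other libraries of their own group, NAc METH replicate 3 (0.827) was not the lowest. All 4 saline libraries of CA lay below it, at 0.727 (replicate 2), 0.774 (replicate 4) and 0.824 (replicates 1 and 3), as did DG METH replicate 3 at 0.73. All libraries were kept as labelled, and values without METH replicate 3 of NAc or saline replicate 3 of SVZ are given beside the results of those groups that they moved most. METH replicate 2 of SVZ, 1 of only 2 there, carries an extra tag of unknown meaning in its peak names.

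The 3 windows differed in how much open chromatin they held. A tile of 200 kb elsewhere in the genome held a median of 5 OCRs (quartiles 1 and 11). As many OCRs as in the Pdyn window, or fewer, were found in 97.3% of tiles, and the same held for 84.3% of tiles with the Penk window and 42.6% with the Tac1 window. Per length, the mean level over the 29 libraries ran from 3.81 to 44.0 CPM per kb in the Pdyn OCRs, from 2.86 to 12.9 CPM per kb in the Penk OCRs and from 2.99 to 4.61 CPM per kb in the Tac1 OCRs. The most accessible OCR of each window was Pdyn-25 (chr3:123205891-123206769), Penk-4 (chr5:16525659-16527117) and Tac1-3 (chr4:33728884-33729279). A peak was called in every one of the 29 libraries over 7 Pdyn OCRs and over Penk-4, and over none of the Tac1 OCRs, which had peaks in 7 to 10 libraries.

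**Figure D1:**
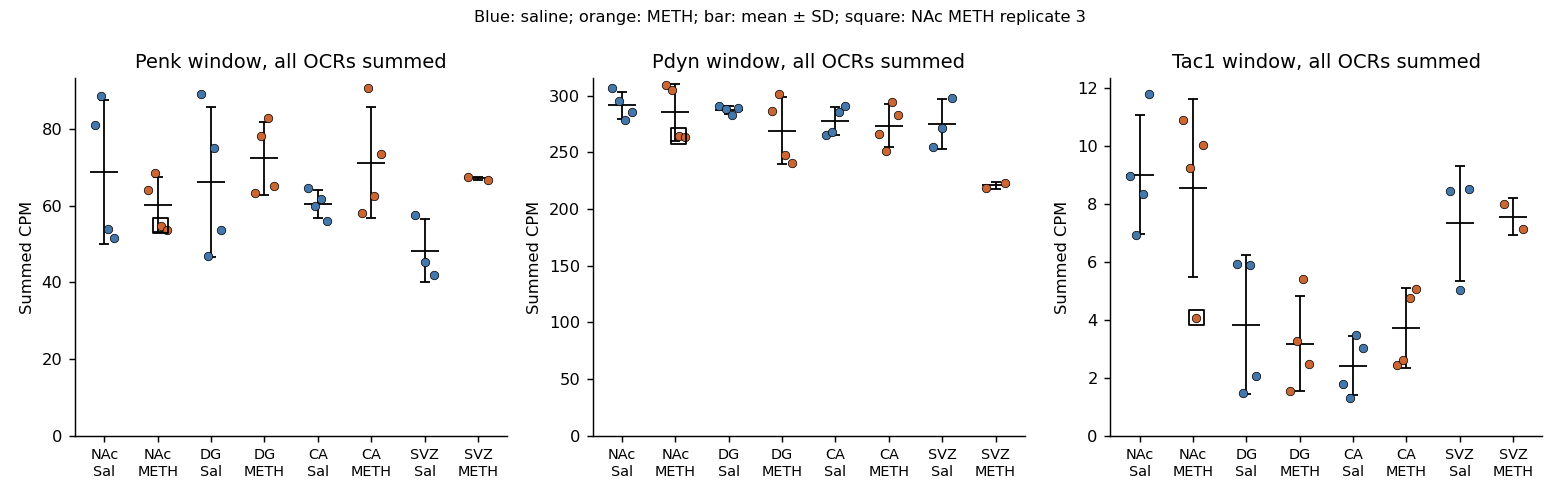
Summed CPM of all OCRs of each window (vertical axis, linear and from 0) in each library of the 8 groups; points are libraries, bars the mean ± SD, and the square marks NAc METH replicate 3. The Tac1 sums of saline NAc lie between 6.93 and 11.8 CPM, above all DG and CA saline libraries, whereas the Penk and Pdyn sums of the regions overlap.

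Summed over its OCRs, the Tac1 window was the one that separated the regions. In saline the Tac1 sum was 8.32, 8.96 and 11.8 CPM in NAc replicates 3, 1 and 4 and 6.93 CPM in replicate 2. It was 1.46, 2.05, 5.87 and 5.91 CPM in DG, 1.31, 1.80, 3.03 and 3.49 CPM in CA, and 5.04, 8.44 and 8.51 CPM in SVZ. Every NAc library lay above every DG and CA library, and NAc and SVZ overlapped. The log2 difference was 1.41 between NAc and DG (1.35 in batch 1 and 1.46 in batch 2) and 1.92 between NAc and CA (2.27 and 1.58). Between SVZ and CA the groups did not overlap either, with CA minus SVZ at -1.63 on the log2 scale (-2.37 and -1.0). Each of these 3 differences had an exact permutation p of 0.0286 (two-sided), the smallest that 4 against 4 or 4 against 3 libraries can give, and 0.171 after Benjamini-Hochberg adjustment over the 18 comparisons of 3 windows and 6 pairs of regions, so that none passed. NAc and SVZ differed by 0.30 (exact permutation p = 0.371, two-sided, adjusted 0.554) and DG and SVZ by -1.11 (exact permutation p = 0.171, adjusted 0.463), with DG replicates 1 and 3 inside the SVZ range.

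The Penk and Pdyn sums did not separate the regions. The Penk sum was 68.8 ± 18.8 CPM in NAc (SD, n = 4), 66.3 ± 19.5 CPM in DG (SD, n = 4), 60.6 ± 3.64 CPM in CA (SD, n = 4) and 48.3 ± 8.27 CPM in SVZ (SD, n = 3), all in saline. Its NAc minus DG difference was 0.39 on the log2 scale in batch 1 and -0.27 in batch 2, so the batches went opposite ways. The Pdyn sum was 291.5 ± 12.1 CPM in NAc (SD, n = 4), 287.6 ± 3.55 CPM in DG (SD, n = 4), 277.7 ± 12.7 CPM in CA (SD, n = 4) and 275.1 ± 21.7 CPM in SVZ (SD, n = 3). No pair of regions passed in the Penk sum (lowest adjusted p = 0.257, exact permutation test, two-sided) or in the Pdyn sum (lowest adjusted p = 0.463).

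At single OCRs, edgeR called Tac1-1 and Tac1-2 between regions, a share of the members no higher than that of all OCRs. To count as region-specific in saline, an OCR needed a log2 fold change over 1 relative to the averaged other 3 regions, at an FDR below 0.01 (edgeR's quasi-likelihood test, Benjamini-Hochberg adjusted over all 98237 OCRs). Of the 43 OCRs, 1 was NAc-specific (Tac1-1), where 4.66% of all OCRs were. None was specific to DG, CA or SVZ, where 0.155%, 0.0814% and 0.399% of all OCRs were. At an unadjusted p under 0.05, 5, 4 and 4 of the 43 OCRs were found in these comparisons by edgeR, against 17.8%, 19.8% and 15.4% of all OCRs, and DESeq2 also called 0 in each. For NAc, DESeq2 called Tac1-2 beside Tac1-1 (6.2% of all OCRs). Between pairs of regions (fold change above 2 either way and FDR under 0.01), 1 of 43 OCRs was called between NAc and DG (Tac1-1), against 6.23% of all OCRs, and 2 of 43 between NAc and CA (Tac1-1 and Tac1-2), against 7.04%. DESeq2 called Tac1-1, Tac1-2 and Penk-7 between NAc and DG (11.6% of all OCRs), and Tac1-1 and Tac1-2 between NAc and CA (12.5%). None of the 43 was called between DG and SVZ or between CA and SVZ, where 2.03% and 2.69% of all OCRs were, whereas DESeq2 called Tac1-1 and Tac1-2 in both (6.75% and 7.21%). Between NAc and SVZ and between DG and CA no OCR of the table was called by edgeR (0.0% each), and none of the 43 by DESeq2. There 3 and 0 of the 43 had an unadjusted p under 0.05 by edgeR, against 3.81% and 0.893% of all OCRs. Between DG and SVZ and between CA and SVZ it was 6 and 5 of the 43, against 20.0% and 21.9%. For NAc against the averaged others, DG and CA it was 9, 7 and 6 of the 43, against 22.3%, 25.2% and 26.6%.

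**Figure D2:**
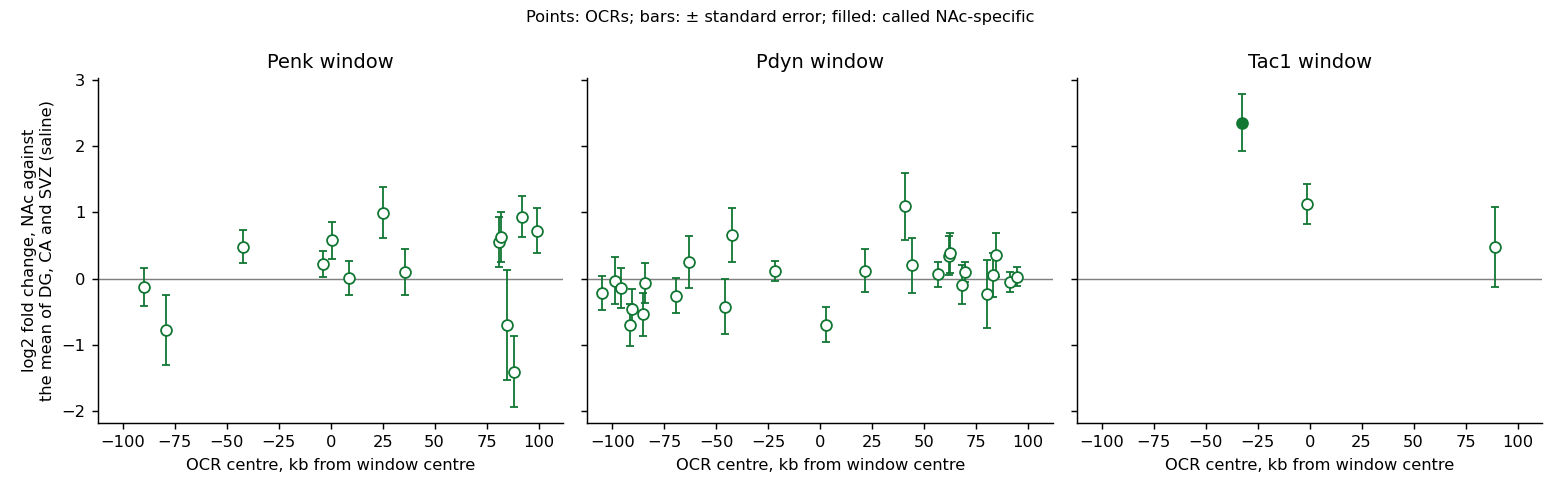
Log2 fold change of each OCR in saline NAc against the mean of DG, CA and SVZ (vertical axis, bars ± standard error) by its distance in kb from the centre of its window. Tac1-1 is the filled point at 2.35; the Penk OCRs run from -1.40 to 1.00 and the Pdyn OCRs from -0.70 to 1.09, none of them called.

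Tac1-1 (chr4:33607217-33607645, 429 bp) read higher in NAc and SVZ than in the hippocampus, where it was close to the floor. In saline it read 2.34, 2.63, 2.79 and 4.78 CPM in NAc and 0.956, 1.79 and 3.31 CPM in SVZ, the last in replicate 3. It read 0.0914, 0.293, 0.381 and 0.618 CPM in DG, from 1 to 6 counts a library, and 0.197, 0.321, 0.363 and 0.415 CPM in CA, from 3 to 7 counts. All NAc and SVZ libraries lay above all DG and CA libraries. The log2 fold change of NAc against the other regions was 2.35 ± 0.43 (SE, n = 4 against 11, edgeR FDR = 0.00156), against DG 3.17 ± 0.62 (FDR = 0.00262) and against CA 3.24 ± 0.61 (FDR = 0.00156). Within batches, NAc minus DG was 3.38 in batch 1 and 2.97 in batch 2, and NAc minus CA 2.98 and 3.31. SVZ against DG and CA was 2.52 and 2.59 higher on the log2 scale, with edgeR FDRs of 0.0257 and 0.0169 that missed the threshold of 0.01. NAc and SVZ differed by 0.65 ± 0.59 (SE, edgeR FDR = 0.997), and DG and CA by 0.07 ± 0.66 (FDR = 1).

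The calls for Tac1-1 rested in part on single libraries. The NAc-specific call was lost without saline replicate 4 of NAc (log2 fold change 2.07, edgeR FDR = 0.0182), and the call against DG without that library (2.89, FDR = 0.0129) or without saline replicate 4 of DG (3.09, FDR = 0.0124). Leaving out saline replicate 3 of SVZ, the library most like NAc, kept both calls. With the METH libraries in place of saline, the NAc-specific call held (2.51, FDR = 0.00963; 2.88, FDR = 0.000586, without METH replicate 3 of NAc). The call against DG was lost there (2.75, FDR = 0.0190) unless that library was left out (3.12, FDR = 0.00179).

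Tac1-2 (chr4:33638452-33639041, 590 bp) followed the same order of regions with smaller differences. In saline it read 2.66, 3.16, 4.09 and 4.86 CPM in NAc, 2.17, 4.12 and 4.49 CPM in SVZ, 0.806, 1.00, 1.24 and 1.85 CPM in DG and 0.9001, 1.05, 1.16 and 1.29 CPM in CA. NAc and SVZ overlapped each other and lay above DG and CA in every library. The log2 fold change was 1.73 ± 0.40 against CA (SE, edgeR FDR = 0.00624), which was called, and 1.59 ± 0.40 against DG (FDR = 0.0125), which was not. The call against CA was lost with TMM library sizes (1.67, FDR = 0.0106) and in 7 of the 15 fits that each left out 1 saline library, all 4 NAc libraries and CA replicates 1, 2 and 3 among them, so it stood close to the threshold. NAc and SVZ differed by 0.04 ± 0.41 (SE, edgeR FDR = 0.998).

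Tac1-3 (chr4:33728884-33729279, 396 bp), at the far end of the window, did not follow that order. In saline it read 1.43, 2.16, 2.24 and 2.86 CPM in NAc, 0.709, 1.91 and 2.53 CPM in SVZ, 0.365, 0.952, 3.40 and 4.29 CPM in DG and 0.0657, 0.485, 1.42 and 1.96 CPM in CA. The DG values spanned the whole NAc range, and NAc differed from the other regions by 0.48 ± 0.61 (SE, edgeR FDR = 0.709). In CA the libraries of batch 2 were the higher ones, and NAc minus CA was 3.02 in batch 1 and 0.57 in batch 2.

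**Figure D3:**
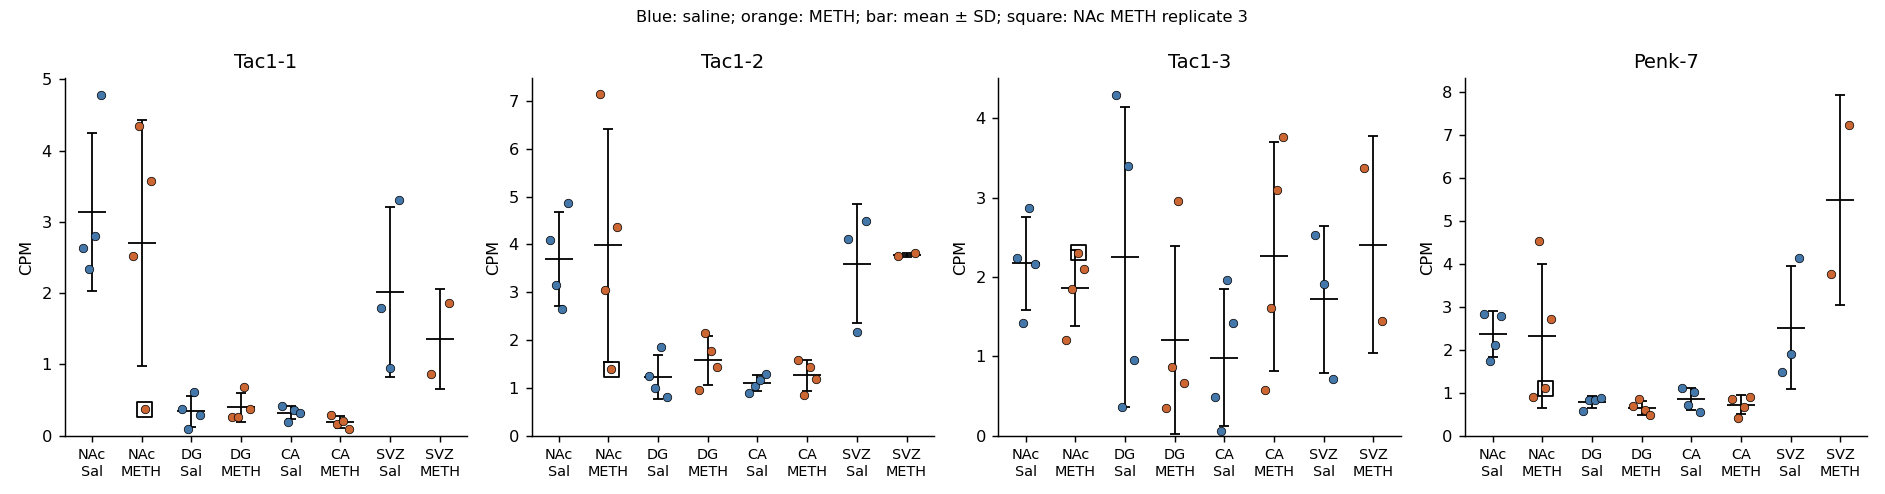
CPM (vertical axis, linear and from 0) of Tac1-1, Tac1-2, Tac1-3 and Penk-7 in each library of the 8 groups; bars are the mean ± SD, and the square marks NAc METH replicate 3. The saline NAc and SVZ libraries of Tac1-1, Tac1-2 and Penk-7 lie above all saline DG and CA libraries, and those of Tac1-3 do not.

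The peak lists, made by the authors library by library, describe the same reads as a yes or no and are not separate support for the counts. The OCRs were merged from such peaks, so Tac1-1 entered the count table mainly through NAc, the region where it was called high. Over Tac1-1 a peak was called in 3 of 4 saline and 3 of 4 METH libraries of NAc, in 1 of 3 saline and 0 of 2 METH libraries of SVZ and in 0 of the 16 DG and CA libraries. The SVZ library is saline replicate 3, the one most like a NAc library. With only peaks of -log10 q above 5, no SVZ library had a peak over Tac1-1. Over Tac1-2 it was 4 of 4 and 2 of 4 in NAc, 2 of 3 and 2 of 2 in SVZ and again 0 of 16 in the hippocampus. METH replicate 3 of NAc had 0 peaks in the whole Tac1 window. Tac1-3 had peaks in 2 of 4 saline NAc and 2 of 4 saline DG libraries.

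Among the Penk OCRs, Penk-7 (chr5:16554945-16555537, 593 bp) had the highest value for NAc. In saline it read 1.73, 2.11, 2.77 and 2.82 CPM in NAc, 1.48, 1.91 and 4.14 CPM in SVZ, 0.572, 0.822, 0.824 and 0.879 CPM in DG and 0.551, 0.722, 1.02 and 1.11 CPM in CA. As for Tac1-1, all NAc and SVZ libraries lay above all hippocampal ones, but by edgeR the differences missed the threshold. The log2 fold change of NAc was 1.59 ± 0.50 against DG (SE, edgeR FDR = 0.0406; 0.00656 by DESeq2) and 1.48 ± 0.49 against CA (FDR = 0.0498), and NAc and SVZ differed by -0.08 ± 0.51 (FDR = 0.998). A peak was called over it in 3 saline and 2 METH libraries of NAc, 1 saline and 2 METH libraries of SVZ and 0 of the 16 hippocampal libraries. With the METH libraries in place of saline and METH replicate 3 of NAc left out, Penk-7 was called higher in SVZ, at 2.32 ± 0.46 against the other regions (SE, edgeR FDR = 0.00965). That setting was chosen after the data were seen, so the call is a description only.

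Other Penk OCRs pointed the other way or did not vary. Penk-12 (chr5:16617742-16618252) had the lowest value for NAc, -1.40 ± 0.54 on the log2 scale against the other regions (SE, edgeR FDR = 0.117). It read 0.102, 0.409, 1.16 and 1.27 CPM in saline NAc and 1.71, 1.79, 3.05 and 3.49 CPM in saline CA, which did not overlap. Penk-4, the most accessible, read 14.6 to 26.1 CPM in saline NAc, 15.5 to 23.1 in DG, 14.4 to 20.1 in CA and 14.1 to 19.6 in SVZ, and NAc differed from the other regions by 0.22 ± 0.20 (SE, edgeR FDR = 0.586). The median over the 14 Penk OCRs of the NAc difference was 0.35, against -0.07 over all OCRs of the table.

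None of the 26 Pdyn OCRs was called in any comparison of regions in saline. Their median NAc difference was 0.00 on the log2 scale. Pdyn-25, the most accessible of all 43, read 30.4 to 44.3 CPM in saline NAc, 34.1 to 50.1 in DG, 34.7 to 37.8 in CA and 31.7 to 43.6 in SVZ, and its NAc difference was -0.05 ± 0.15 (SE, edgeR FDR = 0.885). The highest NAc difference was that of Pdyn-15 (chr3:123155679-123155990), 1.09 ± 0.50 (FDR = 0.208), which read 1.12, 2.18, 4.19 and 4.55 CPM in NAc and 0.381, 0.731, 1.65 and 1.90 CPM in DG. The lowest was that of Pdyn-4 (chr3:123023353-123023689), -0.70 ± 0.31 (FDR = 0.193), which read 1.08, 1.94, 2.32 and 2.34 CPM in NAc and 3.05, 3.37, 4.02 and 4.11 CPM in DG. In saline SVZ Pdyn-15 read 0.782, 1.79 and 4.37 CPM, which overlapped NAc, and in saline CA 0.554, 0.6565, 0.872 and 2.02 CPM. Pdyn-4 read 2.005, 2.26 and 3.66 CPM in saline SVZ and 1.70, 3.20, 3.48 and 4.36 CPM in saline CA, and both overlapped NAc. Pdyn-15 had a peak in 3 NAc libraries and in no library of the other regions, whereas Pdyn-4 had a peak in 5 DG and CA libraries and none elsewhere.

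The comparison of METH with saline asked whether the binge changed accessibility at these loci in any region. No OCR of the windows passed in any region: a differentially accessible region (DAR) had to have a fold change above 1.5 either way and an FDR under 0.001 by edgeR, and 0 of 43 did in each of the regions (0.0% of all OCRs in each), nor did any by DESeq2. DESeq2 called 8 OCRs of the whole table in SVZ. As no OCR of the table passed by edgeR, the 0 of 43 is not particular to these loci. The study reported DARs in every region at these cut-offs. Its methods include a normalization (RUVr) that removes unwanted factors, which this fit left out. At an unadjusted p under 0.05 the members counted 1 of 43 in NAc (2.45% of all OCRs), 7 of 43 in DG (9.84%), 0 of 43 in CA (0.82%) and 5 of 43 in SVZ (3.47%) by edgeR, and 2, 8, 2 and 7 by DESeq2 (3.17%, 16.1%, 1.53% and 4.61%). The edgeR count of DG ran from 3 without METH replicate 1 (3.47% of all OCRs) or saline replicate 4 (5.15%) to 9 without METH replicate 3 (31.2%). It was 4 without METH replicate 4 (3.6%) or saline replicate 1 (7.19%). That of SVZ was 2 without saline replicate 3 (3.2%). That of NAc was 0 without METH replicate 3 (2.07%) or saline replicate 1 (2.25%) and 2 without METH replicate 2 (3.05%). Standard errors of the log2 fold change had medians of 0.39 (NAc), 0.39 (DG), 0.38 (CA) and 0.51 (SVZ). Among the Penk OCRs the METH difference was above 0 in 3 of 14 (NAc), 7 (DG), 12 (CA) and 12 (SVZ). Among the Pdyn OCRs it was above 0 in 7 of 26 (NAc), 8 (DG), 11 (CA) and 6 (SVZ). The share of all OCRs above 0 was not computed, and the OCRs of a window share libraries, so these counts are a description only. The median over all 43 was -0.16, -0.24, 0.04 and -0.10 on the log2 scale in NAc, DG, CA and SVZ, against -0.01, -0.15, 0.02 and -0.01 over all OCRs of the table.

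**Figure D4:**
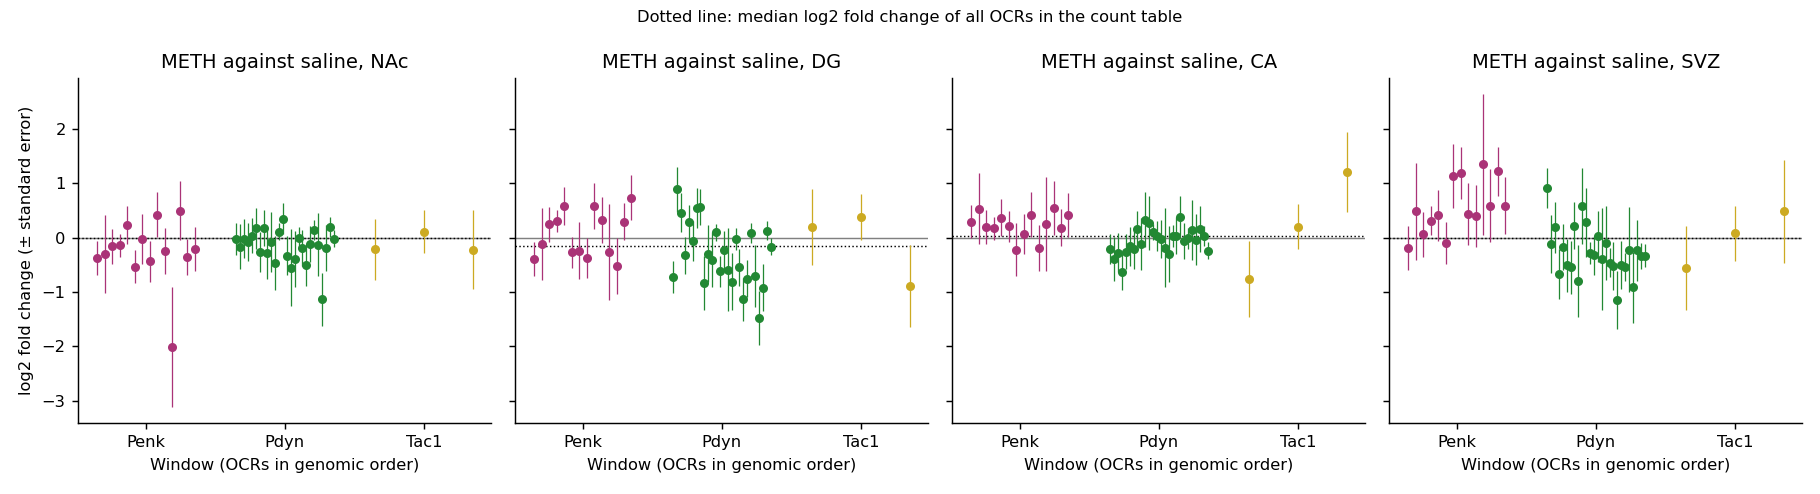
Log2 fold change of METH against saline (vertical axis, bars ± standard error) for the 43 OCRs, by window and in genomic order, in 4 panels for the regions; the dotted line is the median of all OCRs of the table. None of the 43 passes the DAR thresholds, and the largest values are Penk-11 in NAc at -2.01 and Pdyn-23 in DG at -1.48.

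No window sum passed a test of METH against saline in any region (12 comparisons of 3 windows and 4 regions, lowest adjusted p = 0.686, exact permutation test, two-sided; the smallest possible p is 0.1 for SVZ and 0.0286 for each other region). In NAc the log2 difference was -0.16 for Penk (-0.35 in batch 1 and 0.04 in batch 2), -0.03 for Pdyn (0.03 and -0.10) and -0.14 for Tac1 (0.34 and -0.61). Without METH replicate 3 of NAc these became -0.11, 0.00 and 0.18, so the Tac1 value changed sign with that library, whose Tac1 sum was 4.06 CPM against 9.23, 10.0 and 10.9 CPM in the other METH libraries. In DG the differences were 0.17 for Penk (0.12 and 0.21 in the batches), -0.10 for Pdyn (0.02 and -0.23) and -0.15 for Tac1 (-0.38 and 0.08), and in CA 0.21 (0.22 and 0.21), -0.02 (-0.05 and 0.00) and 0.63 (0.68 and 0.57). In SVZ, where batch 1 had no METH library, they were 0.49, -0.31 and 0.08, and 0.62, -0.37 and 0.20 within batch 2. There the Penk sums were 66.9 and 67.4 CPM with METH and 41.8, 45.4 and 57.6 CPM with saline, and the Pdyn sums 218.9 and 223.3 CPM with METH and 255.1, 271.9 and 298.2 CPM with saline, so that both pairs of groups did not overlap, in opposite directions, but the design of 2 against 3 libraries cannot reach p = 0.05 (exact permutation p = 0.2 and 0.1, two-sided).

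In the Pdyn window the METH differences of DG were the largest, at Pdyn-23 (chr3:123198005-123198619). In DG it read 4.57, 7.93, 12.8 and 14.9 CPM with saline and 1.46, 1.91, 3.64 and 7.40 CPM with METH. The groups overlapped in 1 METH library. The log2 difference was -1.48 ± 0.49 (SE, n = 4 against 4, edgeR unadjusted p = 0.00549, FDR = 0.493), with -1.20 in batch 1 and -2.03 in batch 2. Over all OCRs of the table the median METH difference in DG was -0.15 (-0.01 with DESeq2 size factors), and relative to that median Pdyn-23 was at -1.33. In NAc it read 7.33, 7.57, 9.79 and 10.4 CPM with saline and 1.20, 4.23, 4.43 and 6.09 CPM with METH, which did not overlap, at -1.13 ± 0.49 (SE, edgeR unadjusted p = 0.0274, FDR = 1) and at -0.83 without METH replicate 3 of NAc. In CA it read 4.66, 6.44, 11.8 and 14.1 CPM with saline and 4.30, 8.58, 9.63 and 13.5 CPM with METH, at -0.04 ± 0.47 (SE). In SVZ it read 4.01, 5.04 and 10.5 CPM with saline and 3.18 and 3.71 CPM with METH, at -0.91 ± 0.65 (SE), and at -0.40 ± 0.69 (SE) without saline replicate 3. The METH difference of DG minus that of CA was -1.44 ± 0.67 (SE, edgeR unadjusted p = 0.0417, FDR = 0.547), so a difference between the regions did not pass.

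Among the other Pdyn OCRs, Pdyn-24 and Pdyn-19 had values of the same sign in DG. Of the OCRs that lie between them, Pdyn-20 and Pdyn-22 were at -0.75 and -0.71, whereas Pdyn-21 was at 0.08 ± 0.19 (SE). Pdyn-24 (chr3:123198867-123200172), the next OCR after Pdyn-23, read 17.4, 26.1, 32.4 and 35.2 CPM with saline and 6.71, 10.6, 17.6 and 23.5 CPM with METH, at -0.93 ± 0.43 (SE, edgeR FDR = 0.493). Pdyn-19 (chr3:123177374-123177814) read 4.002, 4.84, 5.13 and 6.18 CPM with saline and 1.03, 1.43, 3.05 and 3.61 CPM with METH, without overlap, at -1.14 ± 0.40 (SE, edgeR FDR = 0.493). In CA the 2 OCRs were at 0.15 ± 0.42 and 0.37 ± 0.38 (SE). These OCRs were singled out after their values were seen, because they changed sides under RUVr, a step of the study's methods that removes factors estimated from the residuals of the same libraries. With 5 such factors Pdyn-19, Pdyn-23 and Pdyn-24 were DARs in DG, 3 of 43 against 4.79% of all OCRs. With 10 factors Pdyn-16 joined them, 4 of 43 against 8.67%, and Pdyn-23 was a DAR in NAc, 1 of 43 against 0.307%. The log2 difference of Pdyn-23 in DG was -1.52 ± 0.21 with 5 factors (SE, edgeR FDR = 1.95e-06) against -1.48 ± 0.49 without, so mainly its standard error differed.

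**Figure D5:**
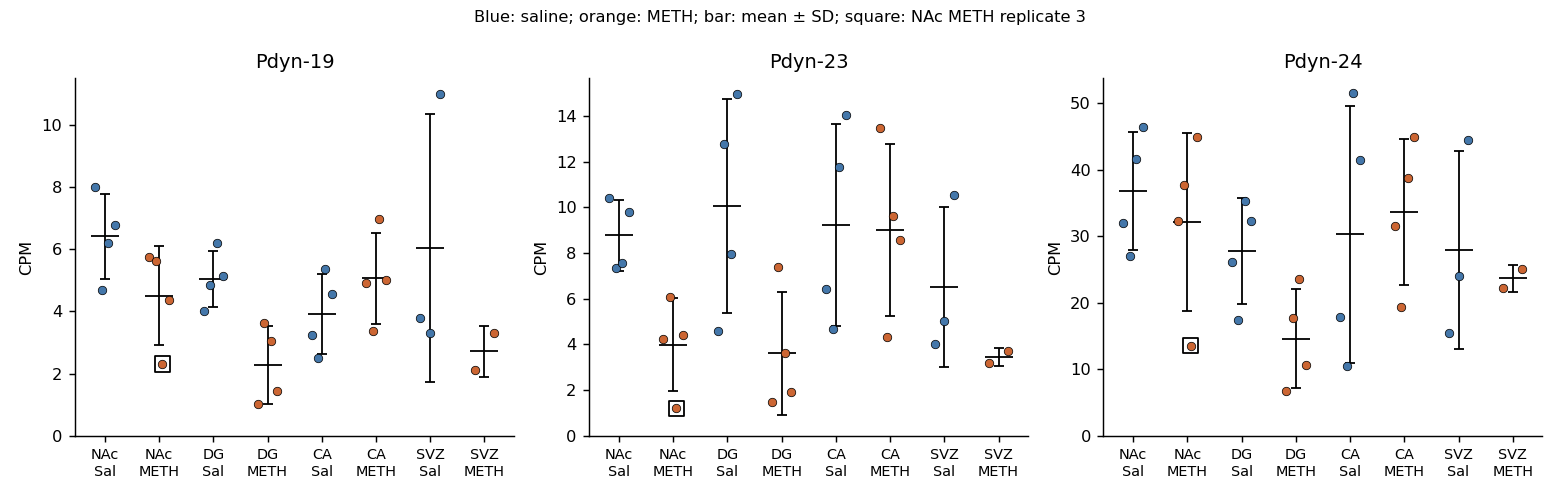
CPM (vertical axis, linear and from 0) of Pdyn-19, Pdyn-23 and Pdyn-24 in each library of the 8 groups; bars are the mean ± SD, and the square marks NAc METH replicate 3. In DG the METH libraries of Pdyn-19 lie at 1.03 to 3.61 CPM and the saline libraries at 4.002 to 6.18 CPM.

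The largest METH differences elsewhere did not pass, and those of Penk-11 and the Tac1 OCRs had wide errors. In the Penk window they were Penk-11 in NAc (-2.01 ± 1.11, SE) and SVZ (1.34 ± 1.29), Penk-14 in DG (0.73 ± 0.41) and Penk-12 in CA (0.54 ± 0.49), each with an edgeR FDR of 0.493 or more. Single libraries moved these values: Penk-11 was at -0.96 in NAc without saline replicate 2, and at 0.05 in SVZ without METH replicate 2 and 2.03 without METH replicate 1. Penk-14 was at 0.47 in DG without saline replicate 2 or METH replicate 2 and at 1.10 without saline replicate 1, and Penk-12 at 0.31 in CA without METH replicate 3. Penk-11 (chr5:16614513-16614849) is near the floor in NAc, with 3, 4, 7 and 20 counts in the saline libraries and 1, 1, 1 and 5 in the METH libraries. In the Pdyn window they were Pdyn-4 in CA (-0.64 ± 0.34) and Pdyn-19 in SVZ (-1.14 ± 0.53, edgeR unadjusted p = 0.0403). Pdyn-19 read 3.30, 3.798 and 10.99 CPM with saline and 2.12 and 3.30 CPM with METH there. The highest saline value is that of replicate 3, without which the difference was -0.39 ± 0.51 (SE). In the Tac1 window they were Tac1-3 in NAc (-0.22 ± 0.73), DG (-0.90 ± 0.75) and CA (1.20 ± 0.74) and Tac1-1 in SVZ (-0.56 ± 0.77). On leaving out 1 library Tac1-3 ran from -0.37 to -0.06 in NAc, from -0.37 (without saline replicate 1) to -1.83 (without METH replicate 3) in DG, and from 0.82 to 1.73 in CA.

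The Tac1 OCRs that set NAc and SVZ apart did not pass for METH in either region. Tac1-1 read 0.369, 2.52, 3.58 and 4.34 CPM in the METH libraries of NAc, the lowest of them replicate 3, and 0.867 and 1.85 CPM in those of SVZ. The METH difference was -0.22 ± 0.56 in NAc and -0.56 ± 0.77 in SVZ (SE, edgeR FDR = 1 for both). In NAc it was 0.41 within batch 1 and -1.59 within batch 2, which holds replicate 3, and 0.15 ± 0.51 (SE) without replicate 3. In SVZ it was -0.01 ± 0.82 (SE) without saline replicate 3, -0.11 without METH replicate 1 and -1.20 without METH replicate 2. Tac1-2 read 1.39, 3.05, 4.35 and 7.15 CPM in the METH libraries of NAc and 3.76 and 3.81 CPM in those of SVZ, with METH differences of 0.11 ± 0.39 and 0.08 ± 0.51 (SE). These standard errors leave room for changes of either sign. Penk-7 read 3.76 and 7.21 CPM in the METH libraries of SVZ against 1.48, 1.91 and 4.14 CPM in saline, at 1.13 ± 0.59 (SE, edgeR FDR = 1), and at 1.69 ± 0.65 (SE) without saline replicate 3.

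When the difference in METH effect between regions was itself tested, no OCR of the windows passed. Over the 6 pairs of regions, 0 of 43 passed the DAR thresholds by edgeR, as did 0.0% of all OCRs in each pair. An unadjusted p under 0.05 was found at 1 of 43 for NAc and DG (2.79% of all OCRs), 0 for NAc and CA (1.1%), 3 for NAc and SVZ (2.48%), 3 for DG and CA (8.48%), 2 for DG and SVZ (4.73%) and 2 for CA and SVZ (1.58%). The lowest p was at Pdyn-1 (chr3:123009880-123010345), whose METH difference was -0.73 ± 0.29 in DG and 0.92 ± 0.37 in SVZ (SE). Their difference was -1.65 (edgeR FDR = 0.870). Pdyn-1 starts before the edge of its window and was kept because it overlaps it. It is named for this value, after it was seen. Tests between regions share animals and libraries, so the pairs are not independent of each other.

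Of OCRs outside the windows, those whose group means over the 8 groups were most like the Tac1 sum were chr6:38795628-38795976 (Pearson's r = 0.998), chr2:25270414-25270904 (r = 0.998) and chr6:27315400-27315964 (r = 0.997). In all, 9067 OCRs had r above 0.9 with the Tac1 sum, 1118 with the Pdyn sum and 88 with the Penk sum, so the Tac1 order of groups was a common one in the table. For Pdyn the most like OCR was chr10:106993898-106995120 (r = 0.996) and for Penk chr11:64855027-64855637 (r = 0.977). These r are over 8 group means that share libraries and depth, and are a description.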

How the data were processed

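The 29 ATAC-seq libraries were grouped by region and treatment from their titles. The authors processed the reads with the AIAP pipeline at default settings (version not stated in the sources at hand), called peaks in each library separately, and merged them into the OCRs of the count table; the submitters' processing notes name rn6 and bedtools. The deposited counts are raw read counts per OCR, made with a read counter that the sources used here do not name. The deposited peak lists hold the fold enrichment of each peak as a ratio over background, and its p- and q-values as −log10 values, and were used for the presence of a peak (overlap of at least 1 bp).

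Counts were fitted with edgeR 4.0.16 in R 4.3.3 (upper-quartile library sizes, trended dispersion, robust quasi-likelihood fit), for METH against saline over all 29 libraries in 8 groups and for regions over the 15 saline libraries, with p-values adjusted over all 98237 OCRs. Every OCR passed the filter on low counts. Counts of a window were summed per library and compared as log2 CPM (prior count 2) by two-sided exact permutation tests. DESeq2 1.42.0, other library sizes, a stricter filter (1 CPM in 4 libraries), RUVr with 1, 5 or 10 factors (the study used RUVr, without a stated number of factors), a batch term, a replicate block, fits without each library, and METH libraries in place of saline were alternatives. Within-batch values of single OCRs used a prior count of 0.5. The fits were tested on simulated data.

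OCRs were described in full by a rule: in each window the most accessible OCR per kb, those with the highest and lowest NAc difference, the one with the largest METH difference in each region, and every OCR called. The windows, lists and this rule were chosen with earlier results of these data known. Same-numbered libraries of NAc, DG and CA within a treatment came from 1 animal, as the library names inside the peak lists show. Their deviations from the group means had correlations of -0.338 to 0.663 over 21 saline pairs and -0.434 to 0.341 over 18 METH pairs. METH and saline libraries of the same number came from different animals. Replicates are therefore separate animals within a group, but tests between regions hold libraries of the same animals. The value of 3 counts given as a floor covers counting error only, whereas the SD and SE include the spread between animals.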

Additional observations from a re-analysis of the deposited data

Results flagged for a closer look

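Among 96 checks of a group of 4 libraries at a described OCR or window sum, 3 had a library far from the others. The rate that chance gives was not computed, and the checks share OCRs and libraries. Penk-11 was at 2.04 CPM in saline replicate 2 of NAc, against 0.292 to 0.477 CPM in the other 3 libraries. The same OCR was at 0.462 CPM in METH replicate 2 of NAc, against 0.0777 to 0.101 CPM in the others, all near or under the value of 3 counts. Penk-14 was at 8.19 CPM in METH replicate 2 of CA, against 3.38 to 3.71 CPM in the others.

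In the Pdyn window, chr3:123013175-123013409 lies outside the OCRs of the count table and had a peak in 3 METH libraries of DG and in 0 saline libraries of DG. It also had a peak in 1 saline library of NAc, 1 saline library of CA and 2 METH libraries of CA. The difference was not tested.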

How the results depend on the processing

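Depth limits the low OCRs: 3 counts were worth up to 0.354 CPM, Penk-11 held 1, 1, 1 and 5 counts in the METH libraries of NAc, and Tac1-1 held 1 to 7 counts in the hippocampal saline libraries. With 10 RUVr factors 1 OCR of the windows was a DAR in NAc (0.307% of all OCRs) and 4 were in DG (8.67%), and with 5 factors 3 were in DG (4.79%). DESeq2 called 2 OCRs NAc-specific (6.2% of all OCRs), 3 between NAc and DG (11.6%), 2 between DG and SVZ (6.75%) and 2 between CA and SVZ (7.21%). TMM library sizes left 1 called between NAc and CA. With METH libraries in place of saline, 0 were called between NAc and DG and 1 between NAc and CA. With METH replicate 3 of NAc also left out, an alternative chosen after seeing the data, 1 was SVZ-specific, 1 was called between DG and SVZ and 1 between CA and SVZ. The cause was not tested. Of all 98237 OCRs, 5 were then called higher and 2160 lower in DG than in SVZ. Between CA and SVZ it was 61 higher and 2533 lower in CA. Leaving out 1 library gave 0 to 1 NAc-specific OCRs (0 without saline replicate 4 of NAc), 0 to 1 between NAc and DG (0 without saline replicate 4 of NAc or of DG) and 1 to 2 between NAc and CA. Counts of members given here without a value over all OCRs are a description only.

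The window sums were recomputed with other library sizes, within batches, with a block, over METH libraries and without each library, and none passed where a test was run. Their sign changes on the log2 scale follow. Between batch 1 and batch 2, saline differences went from 0.39 to -0.27 (NAc minus DG) and 0.44 to -0.16 (NAc minus CA) for Penk, and from -0.10 to 0.57 (NAc minus SVZ) for Tac1. For Pdyn they went from 0.06 to -0.02 (NAc minus DG), 0.17 to -0.03 (NAc minus CA), 0.24 to -0.01 (NAc minus SVZ) and 0.12 to -0.01 (DG minus CA). Those of METH are given with the comparison. With METH libraries in place of saline, Penk was at -0.26 for NAc minus DG, -0.23 for NAc minus CA and -0.16 for NAc minus SVZ (-0.22, -0.18 and -0.12 without METH replicate 3 of NAc), and DG minus CA was -0.03 for Pdyn and -0.26 for Tac1 with or without that library. In Pdyn, DG minus CA was -0.02 with TMM library sizes and CA minus SVZ -0.01 with plain totals. The METH difference of the Pdyn sum in DG was 0.02 within batch 1 and -0.23 within batch 2. Leaving out 1 library, the METH difference ran from -0.07 to 0.00 for Pdyn in NAc, -0.28 to 0.18 for Tac1 in NAc, -0.50 to 0.13 for Tac1 in DG, -0.06 to 0.02 for Pdyn in CA and -0.17 to 0.20 for Tac1 in SVZ. The differences between saline regions ran from -0.09 to 0.22 for Penk NAc minus DG, -0.01 to 0.04 for Pdyn NAc minus DG, -0.07 to 0.23 for Penk DG minus CA and -0.04 to 0.07 for Pdyn CA minus SVZ.

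Of single OCRs, the NAc difference with METH libraries in place of saline was -0.19 for Penk-4, 0.21 for Pdyn-25 and 0.00 for Tac1-3, and -0.13, 0.22 and -0.12 without METH replicate 3 of NAc. That of Pdyn-25 ran from -0.15 to 0.03 on leaving out 1 library. DESeq2 moved the median METH difference of all OCRs in DG by 0.14 and the DG minus CA difference in saline by -0.13. The replicate block by animal gave 2.44 for the NAc difference of Tac1-1, and no replicate block changed a call.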

Other observations

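Peaks outside the OCRs of the count table were found at 15 places in the Penk window, 26 in the Pdyn window and 12 in the Tac1 window. In the Tac1 window, chr4:33682010-33682666 had a peak in 3 saline libraries and 1 METH library of NAc and in no other library, and chr4:33732224-33732740 had one in 17 libraries. In the Penk window, chr5:16590664-16591010 had a peak in 20 libraries. No counts of these places were analysed here, and they were singled out after their values were seen.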
